A study of Rattus norvegicus and Mus musculus with 24 samples.

Results

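The collagen genes were taken as every symbol made of COL, a number, A and a number, a rule on names that uses no measured value. They were 43 of the 17376 symbols in the mouse table and 35 of the 14931 symbols in the rat table, and 43 of the 18043 symbols in either table. COL2A1, COL4A6, COL6A3, COL10A1, COL12A1, COL15A1, COL24A1 and COL25A1 were listed for the mouse alone. The data are bulk RNA sequencing libraries, 1 per animal, from 4 Ctns KO and 4 Ctns WT mice on a C57BL/6 background and, for the rat, of 8 animals per genotype on a Sprague-Dawley background, with matched littermates as controls per the study's methods. Ctns encodes cystinosin, which exports cystine from lysosomes, and its loss causes the kidney disease cystinosis. The labels give kidney cortex as the tissue, proximal tubule as the cell type and dissected tubules in the extraction protocol, and the sex, age and any treatment of the sequenced animals are not stated there. The study's methods name kidney cortex as the source of the RNA that was sequenced. The rats carry the numbers 17 to 24 and 25 to 32, with 4 rats of each genotype in each range, and what the ranges stand for is not stated. The comparisons asked which collagen genes differed between Ctns KO and Ctns WT kidneys, whether fibrillar and basement membrane collagens differed alike, and whether the rat ranges gave the same changes.

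Collagens are proteins of the extracellular matrix whose chains wind into a triple helix. The fibrillar collagens (types I, II, III, V, XI, XXIV and XXVII) form the fibrils of the interstitium and are made mainly by fibroblasts and related stromal cells. Type IV collagen forms a sheet-like network in basement membranes. Its COL4A1 and COL4A2 chains join in nearly all basement membranes, whereas COL4A3, COL4A4 and COL4A5 join in the glomerular basement membrane, where podocytes make them, and in parts of the tubule. Types XV and XVIII, the multiplexins, lie at the border of basement membranes and matrix, and type VI forms beaded filaments around cells. The fibril-associated collagens with interrupted helices (FACIT), the short chain network collagens, the transmembrane collagens and the anchoring fibril collagen make up most of the rest.

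The sequences below show how the fibrillar and basement membrane chains differ. Each unit of 3 codons in a collagen helix opens with a GGN codon, which encodes glycine. In the GENCODE vM21 annotation of mm10 the coding sequence of Col3a1 (chr1:45311538-45349706, plus strand) holds 344 such units without a break, and the longest runs of Col1a1, Col1a2, Col5a1, Col5a2 and Col5a3 are 338, 339, 338, 339 and 337 units. The longest run is 40 units in Col4a1 (chr8:11198423-11312826, minus strand) and 66 in Col4a2, and breaks leave 23 and 24 runs of at least 3 units in these genes. Codons 680 to 697 from the middle of Col3a1 are shown as an unbroken stretch, and codons 1344 to 1361 from the later part of Col4a1 as a stretch chosen because it holds a break, with the GGN codons that open a unit in capitals.
Col3a1: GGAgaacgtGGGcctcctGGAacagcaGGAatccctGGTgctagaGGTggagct
Col4a1: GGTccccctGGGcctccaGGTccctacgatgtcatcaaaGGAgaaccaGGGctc
The Col3a1 stretch has a GGN codon at the head of every unit, and the Col4a1 stretch has a break in which none stands.

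The type IV genes lie in head-to-head pairs, and promoter windows of rat genes in these pairs are shown because COL4A1 with COL4A2, and COL4A3 with COL4A4, moved in the same direction in the rat. In the RefSeq annotation of GRCr8, the start sites of Col4a1 and Col4a2 on chromosome 16 have 76 bases between them, those of Col4a3 and Col4a4 on chromosome 9 have 412, and those of Col4a5 and Col4a6 on chromosome X have 1414. In mm10 the same pairs have 20, 71 and 1308 bases between their annotated gene starts. The 20 bases lie inside both Col4a1 and Col4a2, whose annotated genes overlap there, unlike the other pairs. The windows run from 250 bases before to 50 bases after the start, 5′ to 3′ on the strand of the gene, and capitals mark bases that lie between the start sites of the pair. They are chr16:84885347-84885646 (plus strand) for Col4a1, chr9:91323740-91324039 (plus strand) for Col4a3 and chr9:91323528-91323827 (minus strand) for Col4a4. The Col4a1 window holds all 76 bases between the starts of its pair, and the Col4a2 window, which overlaps it, is not shown.
Col4a1: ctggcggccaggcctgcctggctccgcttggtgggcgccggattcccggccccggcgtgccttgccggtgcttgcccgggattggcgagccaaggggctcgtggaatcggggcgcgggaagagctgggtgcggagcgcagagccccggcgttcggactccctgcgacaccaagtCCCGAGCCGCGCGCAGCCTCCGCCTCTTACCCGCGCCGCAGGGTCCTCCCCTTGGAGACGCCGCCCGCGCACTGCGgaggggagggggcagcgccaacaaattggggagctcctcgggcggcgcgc
Col4a3: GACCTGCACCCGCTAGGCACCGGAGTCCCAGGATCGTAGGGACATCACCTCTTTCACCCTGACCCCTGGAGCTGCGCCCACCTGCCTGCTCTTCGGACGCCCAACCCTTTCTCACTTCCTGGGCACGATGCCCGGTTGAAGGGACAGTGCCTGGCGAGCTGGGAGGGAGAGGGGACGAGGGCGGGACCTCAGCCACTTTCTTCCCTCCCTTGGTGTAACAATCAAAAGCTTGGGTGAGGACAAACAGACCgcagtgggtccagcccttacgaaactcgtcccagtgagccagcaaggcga
Col4a4: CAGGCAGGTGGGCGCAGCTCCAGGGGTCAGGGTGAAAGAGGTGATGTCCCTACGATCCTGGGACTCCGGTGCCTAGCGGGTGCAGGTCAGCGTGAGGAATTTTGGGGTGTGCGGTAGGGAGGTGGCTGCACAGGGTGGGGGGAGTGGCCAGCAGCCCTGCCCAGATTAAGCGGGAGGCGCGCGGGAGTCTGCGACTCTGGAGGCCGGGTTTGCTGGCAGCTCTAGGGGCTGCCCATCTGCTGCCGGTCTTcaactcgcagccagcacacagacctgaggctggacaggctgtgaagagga
Searched on both strands, the Col4a1 window held GGGCGG at 2 places and CCAAT at 2, the Col4a3 window GGGCGG at 1 place, and the Col4a4 window neither. TATAAA was in none of these windows. Of the 33469 windows of all rat genes, 33.1% held GGGCGG, 37.5% CCAAT and 14.2% TATAAA, and of the 37 collagen windows 54.1%, 29.7% and 10.8% did. A window was given for 29 of the 35 collagen genes of the rat table.

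Reads on genes numbered 19309449 to 44449859 per mouse and 24684097 to 40629873 per rat. The targeted gene CTNS was at scaled values of 0.319 to 0.342 in Ctns KO and 0.824 to 1.03 in Ctns WT mice (log2 fold change -1.43). In rats it was at 16.8 to 22.2 CPM (reads scaled by library size) in Ctns KO and 19.2 to 27.8 in Ctns WT animals (log2 fold change -0.22), so the rat groups overlapped and its level says little about the rat labels. The library of Ctns KO mouse 3 stood apart, with 49 reads on XIST, the RNA of the inactive X chromosome in females, against 17581 to 42003 in the other mice, although the study's methods speak of female mice. Markers of other cell types than the tubule were read in every library: the summed level of 8 podocyte markers was 21.1 to 24.3 in mice of both genotypes, and every one of them had reads in all animals. In bulk tissue, fewer cells of a type cannot be told apart from less RNA per cell.

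In the mouse, collagen genes were higher in Ctns KO kidneys or did not pass the test. Of the 43 collagen genes, 29 passed the filter on low values (a scaled value of 0.02 in at least 4 mice, with 1 being the 75th percentile of the library) and were tested with limma together with the other genes, 12555 in all. At an adjusted p under 0.05, 13 rose, against 6.33% of all genes tested, and 0 fell, against 2.41%. The count of 0 lower was also given by edgeR on the recovered reads, while DESeq2 and an unadjusted p under 0.05 each gave 1 (COL8A1). Without mouse 3, 11 rose. The median log2 fold change was 0.36 over the 29 collagen genes and 0.0069 over all genes. All 4 Ctns KO mice lay above all 4 Ctns WT mice for 13 of the 29 collagen genes, the same 13 that rose, and for 9.06% of all genes tested. The test used these same values, so the separation is no further support for the calls. COL8A1, a chain of vascular and corneal sheets, was the only collagen gene with all Ctns KO mice below all Ctns WT mice, as were 5.13% of all genes, with a log2 fold change of -0.44 (adjusted p = 0.126, limma).

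In the rat, collagen genes were called in both directions, and neither direction can be read without the large share of all genes called. There, 33 of 35 passed the filter on low counts and were tested with edgeR among 11839 genes. Over both ranges together 14 rose, against 21.4% of all genes, and 6 fell, against 22.6%, so the count of falls is no result about collagens as a class. The median log2 fold change was 0.19 over the collagen genes and -0.021 over all genes. COL18A1 and COL5A2 were the only collagen genes for which all 8 Ctns KO rats lay above all 8 Ctns WT rats, as did 3.88% of all genes, and for none did all lie below, as did 1.98%. A fit on genotype alone, without the number range, called 13 higher and 1 lower (COL27A1) of 31 collagen genes that passed its filter. COL26A1 did not pass that filter, and the falls of COL4A3, COL4A4, COL9A2 and COL13A1 rest on keeping the ranges apart. The 9 genes that rose in both species were COL1A1, COL1A2, COL3A1, COL5A3, COL4A1, COL4A2, COL6A1, COL6A2 and COL18A1, out of 23 tested in both, and 4.43% of the 10355 genes tested in both rose in both. With 0 called lower in the mouse, no collagen gene could be called lower in both, as 1.4% of all genes were. The species were normalized apart, so differences in size between them were not tested.

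**Figure D1:**
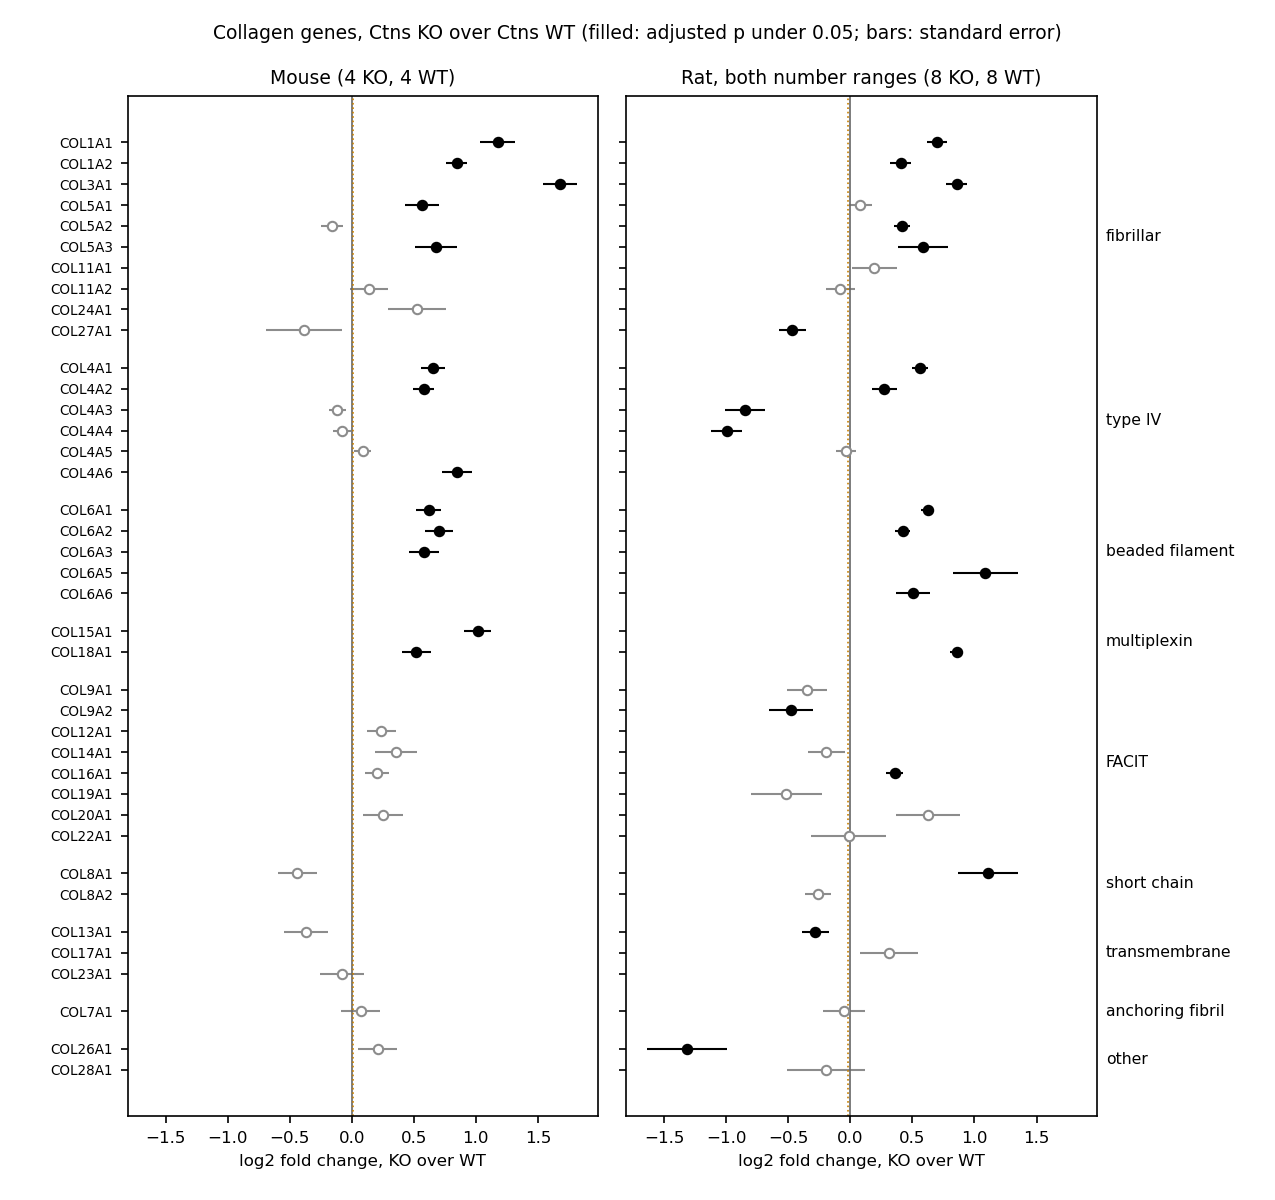
Log2 fold change of each tested collagen gene in mice (left) and rats (right, both number ranges), grouped by class. Points are fitted values, bars are standard errors, filled points have an adjusted p under 0.05, and the dotted line is the median of all genes tested. In the mouse every filled point lies right of 0, and in the rat COL4A3, COL4A4, COL27A1, COL26A1, COL9A2 and COL13A1 lie left of it.

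Compared per length of exon sequence, the mouse collagen RNAs of the Ctns WT kidney were led by COL18A1 and type IV genes. Levels per kilobase of exon, as RPKM (CPM over exon length), were 39.8 ± 6.29 (SD, n = 4) for COL18A1, 36.2 ± 4.68 for COL4A1, 34.9 ± 2.86 for COL4A3, 34.7 ± 2.13 for COL4A4 and 26.9 ± 1.81 for COL4A2. Neighbours in this order differed by less than their spread down to COL4A4. The length joins all annotated exons of a gene, such as 12426 bases for COL1A2 and 7464 for COL4A1. The order between genes thus rests partly on the annotation. The fibrillar COL5A2 stood at 10.5 ± 0.95 RPKM, COL1A2 at 3.47 ± 0.332, COL1A1 at 2.53 ± 0.558 and COL3A1 at 2.30 ± 0.482. In Ctns KO kidneys COL18A1 was at 60.0 ± 8.22 and COL4A1 at 59.8 ± 6.33 RPKM, above COL4A3 at 33.9 ± 1.239, while COL3A1 was at 7.74 ± 0.679 and COL1A1 at 6.02 ± 0.607. The levels of COL4A1 and COL4A3 thus lay within each other's spread in the controls and apart in the knockouts.

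Among the fibrillar collagens of the mouse, the chains of types I and III showed the largest rises. COL3A1, which forms the fine fibrils of soft tissue, had scaled values of 1.53, 1.61, 1.67 and 1.34 in the Ctns KO mice 3, 5, 6 and 8 and of 0.465, 0.634, 0.390 and 0.432 in the Ctns WT mice 1, 2, 4 and 7. Relative to Ctns WT mice it rose by 1.68 on the log2 scale (standard error 0.13, adjusted p = 4.88e-05, limma), or 3.2-fold. COL1A1, the main chain of type I collagen, was at 0.805, 0.874, 0.700 and 0.813 in Ctns KO and 0.376, 0.352, 0.431 and 0.252 in Ctns WT mice. The groups lay far apart for both genes, and COL1A1 rose by 1.17 on the log2 scale (standard error 0.14, adjusted p = 0.000469, limma). COL1A2, the partner chain, was at 1.49 to 1.80 in Ctns KO and 0.808 to 1.018 in Ctns WT mice, a log2 fold change of 0.85 (adjusted p = 3.85e-05, limma).

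Type V collagen, which starts fibrils and limits their width, was uneven in the mouse. COL5A1 rose (log2 fold change 0.57, adjusted p = 0.0207, limma), as did COL5A3 (0.68, adjusted p = 0.0239). Both calls were lost without the filter (adjusted p = 0.0705 and 0.0662) and without mouse 3 (0.0606 and 0.0750), mouse 5 (0.0825 and 0.0992) or mouse 4 (0.0595 and 0.0642). That of COL5A1 was also lost without mouse 6 (0.0686) and that of COL5A3 without mouse 7 (0.0582). COL5A2 was at 1.68 to 2.202 in Ctns KO and 1.86 to 2.37 in Ctns WT mice, overlapping, with a log2 fold change of -0.16 (adjusted p = 0.338, limma). In mm10 Col5a2 (chr1:45374321-45503282, minus strand) lies beside Col3a1 with the opposite orientation, and here only COL3A1 of the pair passed the test. COL27A1 gave -0.39 (adjusted p = 0.544), with Ctns WT mouse 1 at 6.77 and the other 7 mice between 2.26 and 3.33. In all, 5 of the 9 fibrillar genes tested rose, against 6.33% of all genes, and 0 fell, against 2.41%. Their median log2 fold change was 0.57. COL2A1 and COL11A1 were below the filter.

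COL3A1 and COL1A1 also showed the largest rises among the fibrillar collagens of the rat, whereas COL1A2 rose less than COL5A3. COL3A1 was at 55.6, 81.8, 75.2 and 77.9 CPM in Ctns KO rats 18, 20, 22 and 24, against 51.4, 51.0, 42.6 and 45.5 in Ctns WT rats 17, 19, 21 and 23. In the range 25 to 32 it was at 126, 117, 94.2 and 102 CPM in Ctns KO and 47.1, 59.4, 48.6 and 48.7 in Ctns WT rats. The Ctns KO rats were above the Ctns WT rats within each range, and rat 18 was the lowest of the knockouts. Over both ranges COL3A1 rose by 0.86 on the log2 scale (standard error 0.08, adjusted p = 4.27e-07, edgeR). COL1A1 was at 28.998 to 68.3 CPM (median 40.04) in the 8 Ctns KO rats and 21.7 to 33.4 (median 27.8) in the 8 Ctns WT rats, and rose by 0.70 (standard error 0.08, adjusted p = 3.49e-06). COL1A2 rose by 0.41 (adjusted p = 0.000944) and COL5A3 by 0.58 (adjusted p = 0.0247) on the log2 scale, and the call of COL5A3 was lost when rat 22, 23, 26 or 28 was left out.

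COL5A2 and COL27A1 went apart in the rat. COL5A2 was at 23.6 to 29.7 CPM (median 26.8) in Ctns KO and 16.2 to 23.3 (median 21.2) in Ctns WT rats, the fibrillar gene whose groups did not overlap, and rose by 0.42 on the log2 scale (standard error 0.07, adjusted p = 8.53e-05, edgeR). COL27A1, the chain of thin fibrils best known from cartilage, was at 20.2 to 41.6 CPM (median 36.4) in Ctns KO and 35.5 to 60.2 (median 46.8) in Ctns WT rats and fell by 0.47 (adjusted p = 0.00235). COL5A1 gave 0.08 (adjusted p = 0.514). Of the 9 fibrillar genes tested in the rat, 5 rose, against 21.4% of all genes, and 1 fell, against 22.6%. Their median log2 fold change was 0.41. In rats 17 to 24, 2 rose and 0 fell, against 5.05% and 1.91% of all genes. In rats 25 to 32, 4 rose and 1 fell, against 23.7% and 26.2%.

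**Figure D2:**
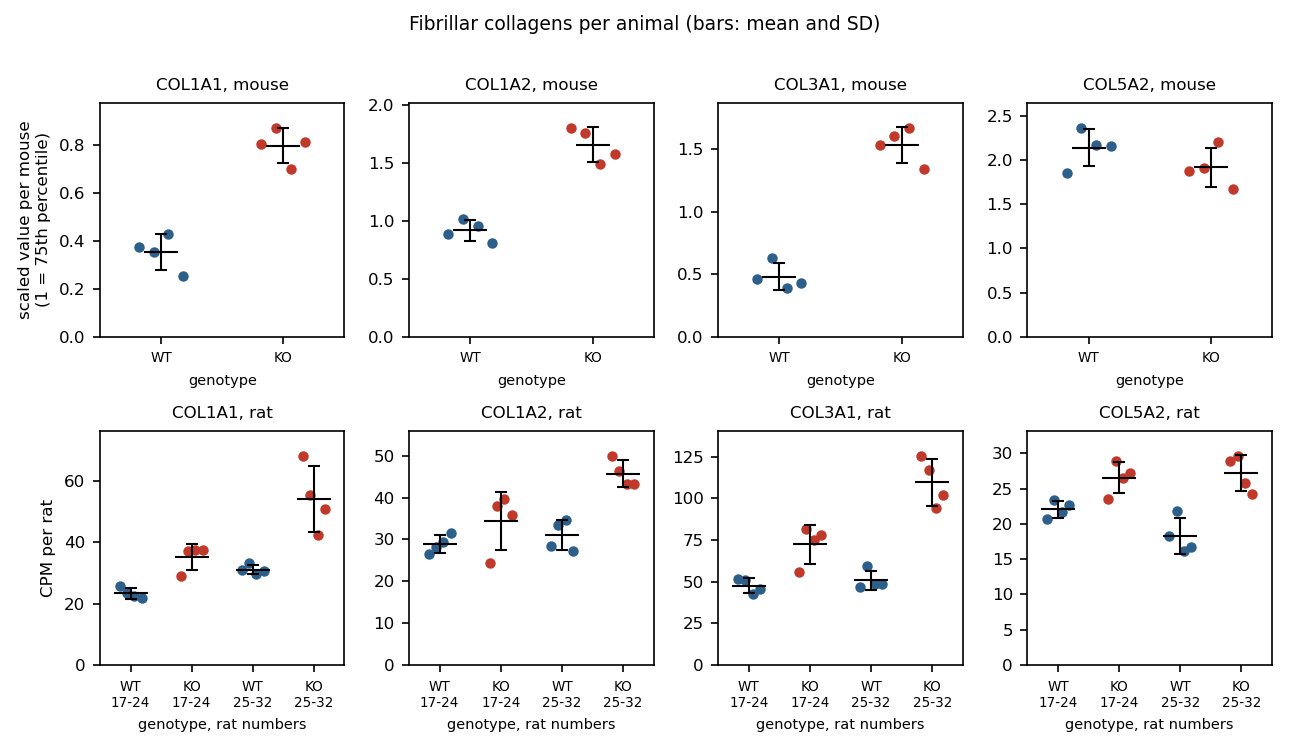
Levels of 4 fibrillar collagen genes in each mouse (top, scaled value) and each rat (bottom, CPM) by genotype and range of rat numbers, on axes from 0. Points are animals, and bars are the mean and SD of each group of 4. COL1A1, COL1A2 and COL3A1 separate the genotypes in the mouse while COL5A2 does not, and in the rat COL3A1 reaches 126 CPM in a Ctns KO rat of the range 25 to 32.

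Some fibroblast markers moved with these genes. In the mouse, 3 of 11 markers tested rose (FBLN1, FN1 and LUM), against 6.33% of all genes, 8 did not pass, and the sum of the list was 5.89 to 6.504 in Ctns KO and 3.97 to 5.23 in Ctns WT mice. In the rat, 5 of 10 rose, against 21.4% of all genes, and the fibroblast sum was 311 to 443 CPM in Ctns KO and 241 to 299 in Ctns WT rats. Among the fibroblast markers of the rat, POSTN was at 0 in some animals. Macrophage markers moved too, with 7 of 8 higher in each species and a sum of 3.02 to 3.61 against 2.16 to 2.58 in mice and of 109.9 to 228 against 74.97 to 113 CPM in rats. Their part in the collagen changes was not tested.

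The type IV genes did not move as 1 group. In the mouse COL4A1 was at 7.99, 10.2, 9.28 and 8.61 in Ctns KO mice 3, 5, 6 and 8 and at 6.09, 5.07, 6.49 and 5.30 in Ctns WT mice 1, 2, 4 and 7. COL4A2 was at 4.99, 6.61, 5.71 and 5.43 against 3.85, 3.61, 4.04 and 3.63 in the same mice. Both chains of the ubiquitous pair were thus higher in each Ctns KO mouse, and rose by 0.65 (standard error 0.10, adjusted p = 0.000705, limma) and 0.58 (standard error 0.08, adjusted p = 0.000669) on the log2 scale. COL4A6, a rare chain that pairs with COL4A5 outside the glomerulus, was at 0.148 to 0.188 in Ctns KO and 0.0734 to 0.0992 in Ctns WT mice, on 74 to 298 reads per library. It rose by 0.85 (adjusted p = 0.000623, limma).

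The chains of the glomerular network did not follow in the mouse. COL4A3 was at 6.64, 6.84, 6.70 and 7.09 in Ctns KO and 7.83, 6.67, 7.25 and 7.85 in Ctns WT mice, and its fitted change was -0.12 (standard error 0.07, adjusted p = 0.385, limma). COL4A4 gave -0.08 (adjusted p = 0.578) and COL4A5 0.09 (adjusted p = 0.499), and the groups overlapped for all 3 genes. The approximate 95% interval of the fitted change ran from -0.25 to 0.02 for COL4A3, -0.21 to 0.06 for COL4A4 and -0.04 to 0.22 for COL4A5. The podocyte markers gave 0 of 8 called by limma in the mouse, and 0 of 8 at an unadjusted p under 0.05, with a median log2 fold change of -0.03.

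In the rat COL4A1 and COL4A2 rose over both ranges, COL4A3 and COL4A4 fell, and COL4A5 did not pass the test. COL4A1 was at 322, 384, 422 and 362 CPM in Ctns KO rats 18, 20, 22 and 24 and at 285, 286, 295 and 289 in Ctns WT rats 17, 19, 21 and 23. In the range 25 to 32 it was at 597, 622, 566 and 467 CPM in Ctns KO and 334, 368, 340.2 and 297 in Ctns WT rats. The genotypes did not overlap within either range, and over both COL4A1 rose by 0.56 on the log2 scale (standard error 0.06, adjusted p = 2.49e-06, edgeR). COL4A2 was at 154 to 247 CPM in Ctns KO and 128 to 195 in Ctns WT rats, overlapping, and rose by 0.27 (standard error 0.10, adjusted p = 0.0355, edgeR). That call was lost in 9 of the 16 fits that left out 1 rat (17, 19, 20, 21, 22, 24, 26, 28 or 30, adjusted p 0.0506 to 0.0744) and in the fit on genotype alone (adjusted p = 0.0556).

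COL4A3 was at 90.8, 72.5, 103 and 76.7 CPM in Ctns KO and 107, 117, 98.5 and 114 in Ctns WT rats of the range 17 to 24. In the range 25 to 32 it was at 30.7, 20.7, 30.9 and 15.9 CPM in Ctns KO and 80.4, 82.3, 48.2 and 39.4 in Ctns WT rats. The genotypes overlapped in the lower range and not in the upper one, where the controls were lower too and rats 29 and 31 were the lowest of them. COL4A4 was at 97.8, 74.3, 106 and 75.6 CPM in Ctns KO and 102, 108, 121 and 138 in Ctns WT rats of the lower range, and at 37.3, 26.6, 30.4 and 22.6 against 96.4, 113, 75.4 and 65.01 in the upper one. Over both ranges COL4A3 fell by 0.85 (standard error 0.16, adjusted p = 0.000614, edgeR) and COL4A4 by 0.995 (standard error 0.13, adjusted p = 1.09e-05) on the log2 scale. In the fit on genotype alone both calls were lost, with log2 fold changes of -0.64 (adjusted p = 0.204) and -0.80 (adjusted p = 0.0557). The estimated counts of COL4A3 were whole reads in 7 of the 16 rat libraries and not in the others, whereas those of COL4A4 were whole in all, and how the counting gave fractions is not stated. COL4A5 gave -0.03 (adjusted p = 0.768, edgeR).

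Some podocyte markers fell with COL4A3 and COL4A4 in the rat. Of 8 markers 4 fell over both ranges, against 22.6% of all genes, and 4 did not pass, with a median log2 fold change of -0.20, and in the range 25 to 32 the median was -0.29. The podocyte sum in that range was 600.4 to 737 CPM in Ctns KO and 741 to 886 in Ctns WT rats, and in the range 17 to 24 it was 1009 to 1102 and 1038 to 1217. None of the 8 markers was at 0 in any rat. Of the endothelial markers 2 of 7 fell in the rat, near the 22.6% of all genes, so this count is no result about the list. Their sum was 431 to 486 CPM in Ctns KO and 521 to 552 in Ctns WT rats of the range 25 to 32. In the lower range it was 594 to 611 and 592 to 650.3. In the mouse 1 of 8 fell (KDR, adjusted p = 0.0132, limma), against 2.41% of all genes. The endothelial sum there was 13.6 to 14.4 in Ctns KO and 14.7 to 15.97 in Ctns WT mice. The part of podocytes and endothelial cells in the collagen changes was not tested.

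**Figure D3:**
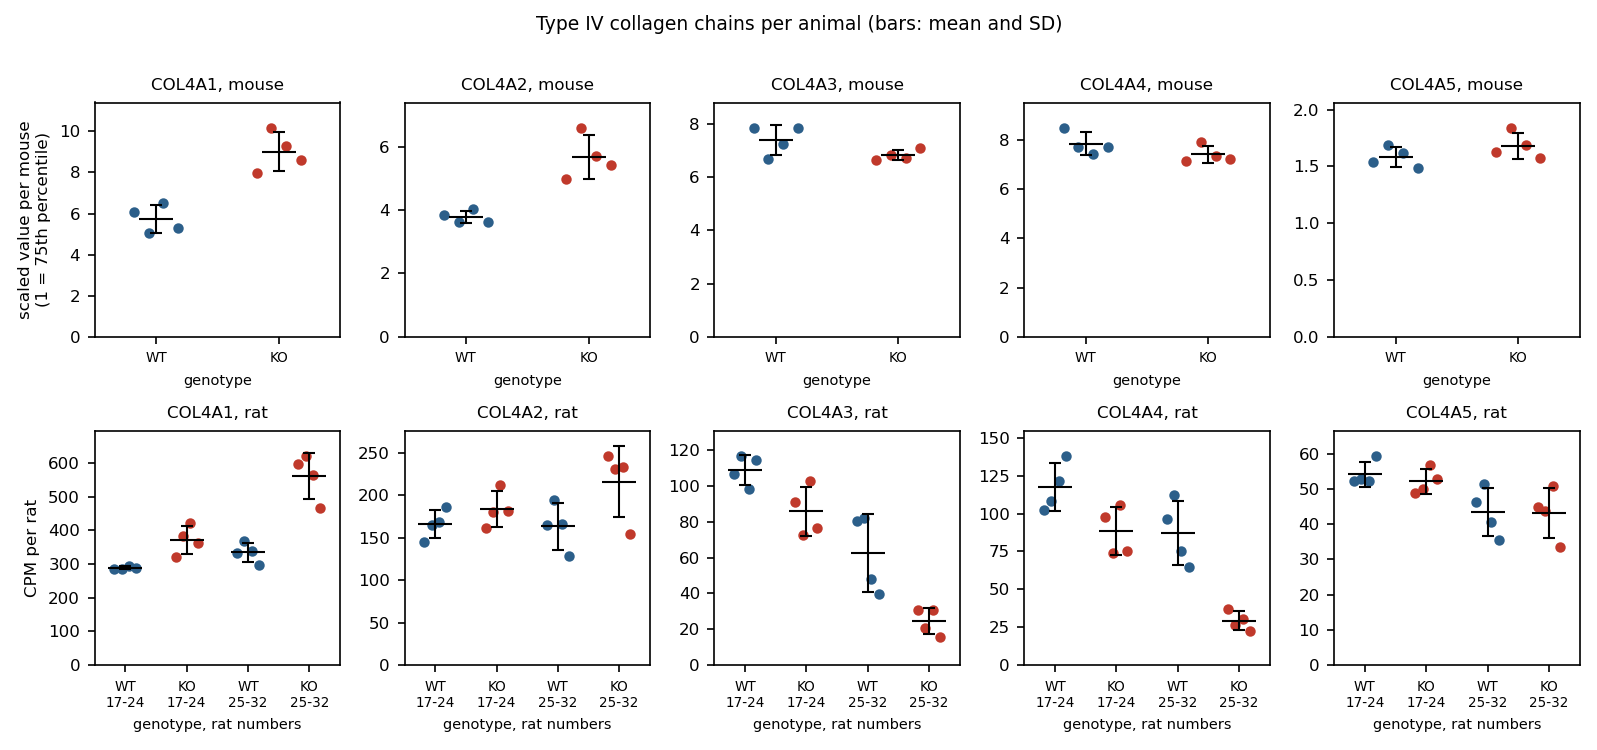
Levels of 5 type IV collagen genes in each mouse (top, scaled value) and each rat (bottom, CPM) by genotype and range of rat numbers, on axes from 0. Points are animals, and bars are the mean and SD of each group of 4. COL4A1 is higher in Ctns KO animals of both species, while COL4A3 and COL4A4 differ little in the mouse and reach 15.9 and 22.6 CPM in Ctns KO rats of the range 25 to 32.

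Ratios between chains within an animal do not depend on how libraries were scaled. In the mouse COL4A3 over COL4A1 was 0.672 to 0.832 in Ctns KO and 1.117 to 1.48 in Ctns WT animals, and COL4A5 over COL4A1 was 0.181 to 0.204 and 0.249 to 0.333. COL4A2 over COL4A1 was 0.615 to 0.649 in Ctns KO and 0.623 to 0.713 in Ctns WT mice, and COL4A4 over COL4A3 was 1.018 to 1.16 and 0.981 to 1.16. In the mouse the ratios of COL4A3 and COL4A5 to COL4A1 were thus apart between the genotypes, and those of COL4A2 to COL4A1 and COL4A4 to COL4A3 overlapped. In the rat range 25 to 32 COL4A3 over COL4A1 was 0.0333 to 0.0545 in Ctns KO and 0.133 to 0.240 in Ctns WT animals, and in the range 17 to 24 it was 0.189 to 0.282 and 0.334 to 0.409. Unlike in the mouse, COL4A2 over COL4A1 did not overlap within the rat ranges either and was lower in Ctns KO rats, at 0.330 to 0.413 against 0.431 to 0.530 in the upper and 0.470 to 0.502 against 0.508 to 0.642 in the lower one.

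**Figure D4:**
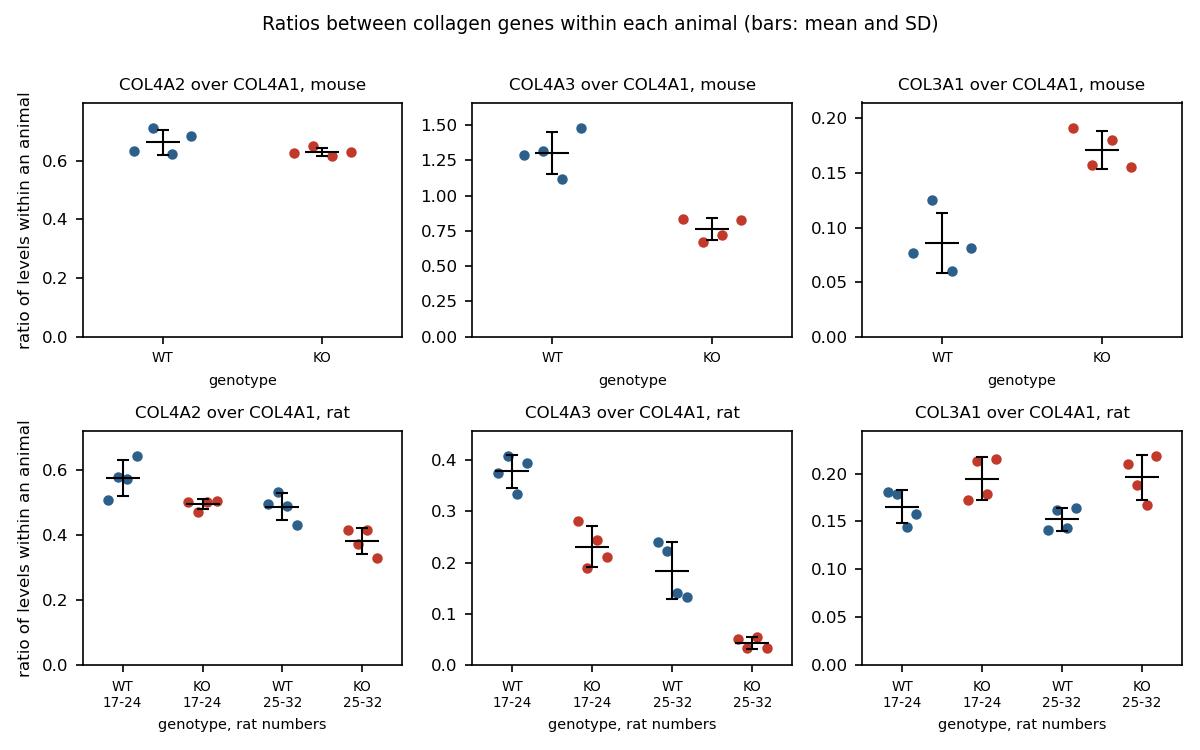
Ratio of the levels of COL4A2, COL4A3 and COL3A1 to that of COL4A1 within each mouse (top) and rat (bottom), by genotype and range of rat numbers, on axes from 0. Points are animals, and bars are the mean and SD of each group of 4. COL4A3 over COL4A1 is 1.117 or more in Ctns WT mice and 0.832 or less in Ctns KO mice, and goes down to 0.0545 or less in the Ctns KO rats of the range 25 to 32.

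Set side by side, the fibrillar genes were shifted further up than the type IV genes by the medians, though by little in the mouse. The median log2 fold changes were 0.57 over 9 fibrillar and 0.33 over 6 type IV genes in the mouse, a difference of 0.23, and 0.41 over 9 and -0.03 over 5 in the rat, a difference of 0.44. The type IV median of the rat lay between COL4A1 at 0.56 and COL4A2 at 0.27 and COL4A3 at -0.85 and COL4A4 at -0.995. COL4A1 alone was thus above the fibrillar median there. The mouse difference was -0.0032 and -0.0337 when 0.1 or 1 in place of 0.01 was added to the values before taking logs, so its direction rests on that choice. Within each animal the mean log2 level of the fibrillar genes less that of the type IV genes was -2.83 to -2.57 in Ctns KO and -3.23 to -2.75 in Ctns WT mice, overlapping. In rats 17 to 24 it was -2.80 to -2.55 in Ctns KO and -3.12 to -2.88 in Ctns WT animals, and in rats 25 to 32 it was -2.23 to -1.77 and -2.93 to -2.61, so the genotypes did not overlap within either range. The single ratio of COL3A1 to COL4A1 was 0.155 to 0.192 in Ctns KO and 0.0601 to 0.125 in Ctns WT mice, apart. It was 0.173 to 0.215 and 0.145 to 0.180 in the lower rat range, overlapping, and 0.1666 to 0.218 and 0.141 to 0.164 in the upper one, apart. These class values are descriptions without a test.

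Every type VI gene that passed the filters rose. In the mouse COL6A1, COL6A2 and COL6A3, the chains of the common heterotrimer, rose by 0.62, 0.70 and 0.58 on the log2 scale (adjusted p = 0.00137, 0.00139 and 0.00961, limma), and the ratio of COL6A2 to COL6A1 overlapped at 0.568 to 0.632 and 0.541 to 0.592. In the rat COL6A1 was at 38.1 to 71.9 CPM (median 59.2) in Ctns KO and 32.6 to 45.4 (median 34.5) in Ctns WT animals, a rise of 0.62 on the log2 scale (standard error 0.06, adjusted p = 1.63e-07, edgeR). COL6A2 rose by 0.42 (adjusted p = 2.98e-05), and the alternative chains COL6A5 and COL6A6 by 1.09 (adjusted p = 0.00293) and 0.50 (adjusted p = 0.00706). The calls were thus 3 of 3 genes tested in the mouse, against 6.33% of all genes, and 4 of 4 in the rat, against 21.4%. Of these 4, 1 was called in rats 17 to 24, against 5.05% of all genes, and all 4 in rats 25 to 32, against 23.7%. COL6A5 had medians of 1.08 and 0.578 CPM, and in the mouse it and COL6A6 were below the filter.

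The multiplexins rose in both species. COL18A1, whose C-terminal fragment is endostatin, was at 7.08, 9.66, 9.29 and 8.03 in Ctns KO and 6.86, 5.25, 6.51 and 5.14 in Ctns WT mice, with mouse 3 only just above Ctns WT mouse 1. It rose by 0.52 on the log2 scale (standard error 0.12, adjusted p = 0.0180, limma), and the call was lost without mouse 5 or 6 (adjusted p = 0.0688 and 0.0753) and without the filter (0.0633). In the rat COL18A1 was at 204, 240, 219 and 245 CPM in Ctns KO and 172, 155, 161 and 152 in Ctns WT rats of the lower range. In the upper range it was at 355, 408, 383 and 325 CPM against 169, 160, 151 and 155. No Ctns KO rat overlapped a Ctns WT rat, the rise was 0.86 (standard error 0.05, adjusted p = 1.54e-09, edgeR), and the call held in each alternative fit of the rat and with each rat left out. COL15A1, listed for the mouse alone, was at 0.798, 0.890, 0.864 and 0.805 in Ctns KO and 0.376, 0.516, 0.334 and 0.436 in Ctns WT mice and rose by 1.01 (standard error 0.11, adjusted p = 0.000118, limma).

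The other classes held few called genes. Of the 4 FACIT genes tested in the mouse 0 passed with limma, with log2 fold changes of 0.20 to 0.36, and COL16A1 had an unadjusted p of 0.0486. In the rat COL16A1 rose by 0.36 (adjusted p = 0.000555, edgeR) and COL9A2 fell by 0.47 (adjusted p = 0.0385), and 5 FACIT genes did not pass. The call of COL9A2 was lost in 10 of the 16 fits without 1 rat (17, 18, 19, 20, 21, 22, 25, 28, 29 or 30) and in the fit on genotype alone (adjusted p = 0.294). The short chain gene COL8A1 was at 0.798 to 1.41 CPM in Ctns KO and 0.154 to 0.830 in Ctns WT rats and rose by 1.11 (adjusted p = 0.00123, edgeR), whereas it had been lower in each Ctns KO mouse without passing the test. COL26A1 fell by 1.31 (adjusted p = 0.00319) at low levels, with medians of 0.138 and 0.390 CPM in Ctns KO and Ctns WT rats, and COL13A1, a transmembrane collagen, by 0.28 (adjusted p = 0.0396). In the fit on genotype alone COL26A1 was below the filter and so not tested, and the fall of COL13A1 was not called. The fall of COL13A1 was also lost in 10 of the 16 fits without 1 rat (18, 19, 21, 22, 23, 25, 28, 29, 30 or 31).

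The changes were larger in rats 25 to 32 than in rats 17 to 24 for some collagen genes. In rats 17 to 24, 5 collagen genes rose (COL1A1, COL3A1, COL4A1, COL6A1 and COL18A1), against 5.05% of all genes, and 0 fell, against 1.91%. DESeq2 gave 6 higher (COL8A1 in addition) and 0 lower, and 3 genes were lower at an unadjusted p under 0.05 (COL4A4, COL14A1 and COL26A1). COL4A1 lost its call there without rat 20 or 22 (adjusted p = 0.0560 and 0.0733). In rats 25 to 32, 14 rose, against 23.7% of all genes, and 7 fell, against 26.2%. Both ranges are part of the comparison over all rats. Tested directly, the change in rats 25 to 32 exceeded that in rats 17 to 24 for 3 collagen genes, against 7.1% of all genes, and was below it for 1, against 7.64%. Among 33 collagen genes these counts are near the shares of all genes, and so are no result about collagens as a class.

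The 3 genes were COL16A1, COL18A1 and COL6A1. The log2 fold change of COL18A1 was 0.50 in the lower and 1.21 in the upper range (difference 0.71, standard error 0.10, adjusted p = 0.000582, edgeR). COL16A1, which sits beside fibrils and basement membranes, gave -0.0085 and 0.72 (difference 0.73, standard error 0.14, adjusted p = 0.00339), and its Ctns KO rats were at 8.34 to 9.71 CPM in the lower and 11.5 to 14.1 in the upper range against 8.09 to 10.5 and 6.91 to 8.48 in Ctns WT rats. COL6A1 gave 0.36 and 0.88 (difference 0.52, standard error 0.11, adjusted p = 0.00626), with the Ctns KO rats of the upper range between 70.7 and 71.9 CPM. COL4A4 was the gene in the other direction, at -0.41 and -1.58 (difference -1.16, standard error 0.25, adjusted p = 0.00748). COL4A3 (-0.35 and -1.35, adjusted p of the difference 0.0508, edgeR), COL3A1 (0.61 and 1.11, 0.0515) and COL4A1 (0.37 and 0.75, 0.0542) did not pass that test. DESeq2 called those 3 genes too, 7 in all. Without Ctns WT rat 27 edgeR called 8, the 4 others being COL3A1, COL4A1, COL5A2 and COL14A1.

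**Figure D5:**
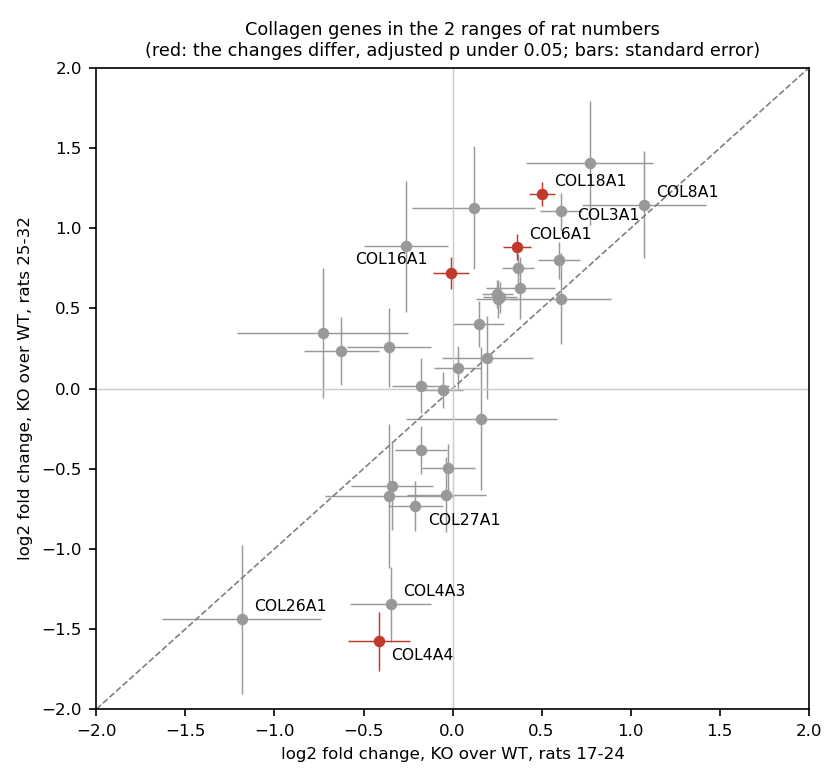
Log2 fold change of each tested collagen gene in rats 17 to 24 (x) and rats 25 to 32 (y). Points are fitted values, bars are standard errors, the dashed line marks equal changes, and red points are the 4 genes whose changes differ at an adjusted p under 0.05 (COL16A1, COL18A1 and COL6A1 above the line, COL4A4 below it).

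Genes that make, link and bind collagen were read as lists. Of the biosynthesis list (hydroxylases, chaperones, propeptidases and glycosyltransferases), 4 of 24 tested rose in the mouse, and 9 rose and 3 fell of 20 in the rat. The shares of all genes to read these and the next counts against are 6.33% higher and 2.41% lower in the mouse and 21.4% and 22.6% in the rat. In the mouse ADAMTS2, which trims procollagen, rose by 0.68 (adjusted p = 0.00105, limma), SERPINH1, the collagen chaperone, by 0.44 and P3H3, a prolyl hydroxylase, by 0.44. In the rat ADAMTS14 rose by 0.55 (adjusted p = 0.00513, edgeR) and P3H4 by 0.53, while COLGALT2, which adds galactose to collagen, fell by 0.58. In rats 17 to 24, 1 of the 20 rose and 0 fell, against 5.05% and 1.91% of all genes. In rats 25 to 32, 10 rose and 4 fell, against 23.7% and 26.2%. The change of P3H4 was larger by 0.97 in the upper range (adjusted p = 0.00553, edgeR). Those of ADAMTS14 and COLGALT2 did not pass this test between ranges (adjusted p = 0.429 and 0.497). The medians of this list were 0.09 in the mouse and 0.14 in the rat.

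Of the cross-linking list 4 of 7 rose in the mouse and 3 of 4 in the rat. LOX and LOXL1, oxidases that start cross-links, rose by 0.88 and 0.76 in the mouse (adjusted p = 0.00915 and 5.89e-05, limma) and by 0.71 and 0.61 in the rat (adjusted p = 0.00646 and 8.11e-07, edgeR). LOXL3 rose by 0.45 in the mouse and LOXL4 by 0.97 in the rat. The rise of LOXL1 was larger by 0.72 in rats 25 to 32 than in rats 17 to 24 (adjusted p = 0.00176, edgeR). Those of LOX and LOXL4 did not pass this test (adjusted p = 0.601 and 0.834). Of the collagen receptors 3 of 7 rose in the mouse (DDR2 by 0.74, MRC2 by 0.46 and DDR1 by 0.25). In the rat 2 rose and 2 fell of 5, with ITGA11, the integrin chain for fibrillar collagen, at 1.44 (adjusted p = 0.000131, edgeR) and LAIR1 at -1.17. DDR2, a kinase receptor for fibrillar collagens, had opposite signs in the species, at 0.74 in the mouse (adjusted p = 9.63e-05, limma) and -0.38 in the rat (adjusted p = 0.00316, edgeR). Within the rat, DDR2 was at -0.0155 in rats 17 to 24 (adjusted p = 0.976) and -0.75 in rats 25 to 32 (adjusted p = 0.000198), and these changes differed (adjusted p = 0.0164, edgeR), so the opposite sign rests on the upper range.

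The last list held the partners of type IV collagen in basement membranes, such as laminins and nidogens. In the mouse 3 of 15 rose, with NID1, which links laminin to type IV collagen, at 0.67 (adjusted p = 0.000272, limma), the proteoglycan HSPG2 at 0.38 and AGRN at 0.34. In the rat 4 of 11 rose and 1 fell, with the laminin chains LAMB3 at 0.59 (adjusted p = 0.0439, edgeR) and LAMA3 at -0.53 (adjusted p = 7.75e-05), counts that stand beside 21.4% and 22.6% of all genes. The medians were 0.13 in the mouse and 0.07 in the rat, beside 0.57 and 0.41 for the fibrillar genes. Proximal tubule markers fell beside these changes in the rat, where 5 of 7 fell and their sum was 6869 to 9392 CPM in Ctns KO and 10465 to 15251 in Ctns WT rats. In the mouse 0 of 8 passed with limma, and 0 of 8 at an unadjusted p under 0.05. Their part in the collagen changes was not tested.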

How the data were processed

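Total RNA of 24 animals was sequenced by the authors from stranded mRNA libraries with paired reads. The submitters' processing notes name bcl2fastq 2.20, STAR 2.7.3, DESeq2 1.24.0 and R 3.6.1 and the builds mm10 and rn5; the counter and annotation are not given in the sources used here. For the mouse the authors deposited a scaled signal per gene, which from its values is the reads plus 0.5 over their 75th percentile plus 0.5; whole reads (within 0.01) came back for 99.0% of values, and a value of 1 is 46.25 to 49.89 CPM. The deposited rat values are estimated counts with a constant added by the authors, whole for 97.7% of values once it was taken off, and these were rounded.

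Mouse values were tested with limma 3.58.1 (trend, robust) on log2(value + 0.01), which understates changes of the lowest genes, and rat counts with edgeR 4.0.16 (quasi-likelihood, robust, TMM, filterByExpr), with genotype and number range as 4 groups in 1 fit. P-values were adjusted by Benjamini-Hochberg over all genes tested (threshold 0.05). They set the difference between groups against the spread between these animals, which both tools estimate partly from all genes. The 4 groups of rats share 1 estimate of it per gene. Rat CPM used TMM, and mouse RPKM used the exons of GENCODE vM21. Libraries of a group differed beyond counting noise (chi-square per degree of freedom at least 12.3 in 12 mouse and 8.6 in 56 rat pairs). With 4 or 8 animals per group, precision for well-read genes is set by the spread between animals rather than by depth. Counting noise weighs more for genes with few reads, such as COL26A1 at 3 to 16 and COL8A1 at 5 to 46 reads per rat.

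Members and gene lists were chosen with earlier results of these data known. Genes named were COL1A1, COL1A2, COL3A1, COL5A1, COL5A2, COL4A1 to COL4A6, COL6A1 to COL6A3, COL15A1 and COL18A1, up to 6 further called collagens per species by size of change, those past the test between ranges, and up to 3 per partner list and species. One gene that this rule gives is not reported here. COL8A1 in the mouse, COL27A1, COL13A1, COL14A1, COL17A1, COL11A2 and single marker genes were named after their values were seen. Alternatives were other pseudocounts, no filter, edgeR and DESeq2 1.42.0 on the recovered mouse reads, DESeq2 and its size factors for rats, genotype alone, each range alone, and each animal left out. Scripts were tested on simulated data.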

Additional observations from a re-analysis of the deposited data

Results flagged for a closer look

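COL6A1 in the Ctns WT group of rats held a value that stood apart: rat 29 was at 45.4 CPM and the other 7 rats at 32.6 to 37.6, and this gap was over the limit set for 8 samples. It was 1 of 74 groups of a named collagen gene examined, and chance alone gives about 1 in 20. COL6A1 kept its call over both ranges in every fit that left out 1 rat.

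The change with genotype differed between the rat ranges for 4 collagen genes by the interaction test of edgeR. The change in rats 25 to 32 less that in rats 17 to 24 was 0.73 for COL16A1, 0.71 for COL18A1, 0.52 for COL6A1 and -1.16 for COL4A4 on the log2 scale. What the ranges stand for is not stated in the labels, so their meaning cannot be told apart from any difference in handling.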

How the results depend on the processing

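The count of collagen genes changed in the mouse was 13 with pseudocounts of 0.1 and 1 and without one, 10 without a filter, 13 with edgeR and 14 with DESeq2, and 10 to 16 with 1 mouse left out (10 without Ctns KO mouse 5, 16 without Ctns WT mouse 2). Over all rats the 20 calls became 20 to 21 with other normalization, filter or tool, 14 with genotype alone and 16 to 20 with 1 rat left out. In rats 17 to 24 leaving out 1 rat gave 4 to 7 calls in place of 5 (COL4A1 was lost without rat 20 or 22), and in rats 25 to 32 it gave 16 to 22 in place of 21. The 4 genes whose change differed between the ranges became 7 with DESeq2 (COL3A1, COL4A1 and COL4A3 in addition) and 4 to 8 with 1 rat left out, the 8 without Ctns WT rat 27, and the cause was not tested. The fibrillar less type IV difference moved from 0.23 to -0.0032 and -0.0337 with pseudocounts of 0.1 and 1 and was 0.11 to 0.382 with 1 mouse left out. It was 0.401 to 0.496 in the rat. No named gene changed sign past the threshold. No paired analysis was possible because the groups share no replicate numbers. Collagens under the filters, 14 in the mouse and 2 in the rat, were not tested at this depth.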

Other observations

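COL17A1, a transmembrane collagen of hemidesmosomes in stratified epithelia, followed the number range of the rats. It was at 26.8, 34.4, 55.9 and 31.8 CPM in Ctns KO and 31.5, 36.3, 59.2 and 51.3 in Ctns WT rats of the range 17 to 24. In the range 25 to 32 it was at 1.99, 2.21, 1.32 and 1.53 CPM in Ctns KO and 0.335, 1.16, 1.28 and 0.965 in Ctns WT rats. The ranges did not overlap, and the genotypes gave a log2 fold change of 0.31 over both ranges (adjusted p = 0.305, edgeR). It was -0.26 in the lower range (adjusted p = 0.65, edgeR) and 0.89 in the upper one (adjusted p = 0.083), where the genotypes did not overlap. DESeq2 and the fit of the upper range alone called COL17A1 higher there. COL17A1 was chosen here after its values were seen.

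COL11A2 was at 9.40 to 17.2 CPM in the 8 rats of the range 17 to 24 and at 5.40 to 8.67 in those of the range 25 to 32, whatever the genotype, and COL4A3 of the Ctns WT rats was at 98.5 to 117 and 39.4 to 82.3 CPM in the same ranges. These values were also chosen after they were seen.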
